A study of Mus musculus with 7 samples.

Results

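Sirtuins are deacylases that consume NAD to remove acetyl and longer acyl groups from proteins. SIRT1, SIRT6 and SIRT7 are nuclear, SIRT3, SIRT4 and SIRT5 are mitochondrial, and SIRT2 is largely cytoplasmic, where it deacetylates alpha-tubulin. In the CNS, SIRT2 is known as a protein of oligodendrocytes (OLs) and their myelin. The 8 genes described here are the 7 sirtuin genes and Nfkbib, which encodes the NF-kB inhibitor IkB-beta and overlaps Sirt2 on the opposite strand. They are 8 of 22880 genes in the table, and all 8 had enough signal to be tested. Sirt2 was selected on its lower FPKM in these mutant optic nerves, whereas the other sirtuins were taken by family name and Nfkbib by its position. The difference between genotypes in these 8 genes is therefore given as a description. Their p-values are not printed, and nothing is read from whether they passed a threshold in the fit of all tested genes.

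RNA was measured in optic nerves of mice at postnatal day (P) 14. The 4 control mice were FASN lox/lox, so that they carried the floxed fatty acid synthase alleles but no Cre. The 3 mutant mice were olig2cre FASN lox/lox, in which Cre under the Olig2 promoter acts in the OL lineage. Both nerves of a mouse made 1 sample, the strain background was C57Bl/6, and the floxed line, of mixed 129X1/SvJ, C57BL/6 and DBA descent, had been backcrossed for at least 3 generations. Values are FPKM, the deposited estimate of fragments scaled by transcript length and by library size. In control nerves Fasn had 169.1 to 228.3 FPKM, and in mutant nerves it had 49.0 to 69.3 FPKM. The libraries held between 27452222 and 43462575 reads. The marker lists of OL progenitors, newly formed OLs, myelinating OLs, astrocytes, microglia, endothelial cells and meningeal fibroblasts were all measured, with no gene at 0 in all samples. The neuronal list summed to 12.8 to 32.8 FPKM over all mice. Its most abundant genes in control nerves were Snap25 (7.52 ± 1.30 FPKM) and Gad1 (7.27 ± 1.82 FPKM, SD, n = 4 each). Mutant sample 3 was above all other mice in both, with 13.70 and 13.49 FPKM. Rbfox3, which encodes the nuclear marker NeuN, had 1.04 ± 0.182 FPKM (SD, n = 4) in control nerves. In whole nerves, fewer cells of a type and less RNA per cell cannot be told apart.

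Sirt2 (ENSMUSG00000015149) spans bases 28766752 to 28788665 of chromosome 7 (GRCm38) on the plus strand, and Nfkbib (ENSMUSG00000030595) spans 28758251 to 28767512 on the minus strand. The genes start close together and run apart. Their spans in the table overlap because 1 longer Nfkbib transcript starts at base 28767512, within the Sirt2 span. The RefSeq starts are at 28766752 for Sirt2 and 28766644 for Nfkbib. The stretch between the Nfkbib start and the first annotated Sirt2 exon is shown because it lies upstream of the RefSeq starts of both genes (and in an intron of 1 longer Nfkbib transcript), whose transcripts were both less abundant in mutant nerves. It is chr7:28766645-28766734 of GRCm38.p6 (RefSeq), 90 bases written 5′ to 3′ on the plus strand, toward Sirt2. The capitals mark the reverse complement of the motif ACANNTCCC, a 9-letter core of the motif that the factors ZNF143 and THAP11 are known to bind.
Sirt2 and Nfkbib shared upstream stretch: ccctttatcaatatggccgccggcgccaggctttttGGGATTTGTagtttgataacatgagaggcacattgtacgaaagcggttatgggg

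RefSeq windows from 250 bases before to 50 bases after a start were found for all 8 genes (10 windows), and those of Sirt2 and Nfkbib share 207 bases. The motif was searched on both strands. Both windows hold the same 2 matches, of which the one printed lies 71 to 63 bases before the Sirt2 start and the other reaches from 2 bases before that start to base 7 after it. The Sirt4 window holds 2 matches of its own, within 136 bases of its start. Among 32851 mouse windows of this length, 6.28% hold at least 1 match and 0.484% hold 2 or more. No match was found in the windows of Sirt1, Sirt3, Sirt5, Sirt6 and Sirt7. The motif GCCATNTTG of YY1, also searched on both strands, had 1 match in the shared stretch (2.51% of all windows). The letters CCAAT were found 2 times, TATAAA 0 times and GGGCGG 1 time in the Sirt2 window, and none of them in the Nfkbib window, against 37.4%, 13.6% and 35.7% of all windows. The motifs were picked after the sequence had been seen, and a match is a description of letters only.

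**Figure D1:**
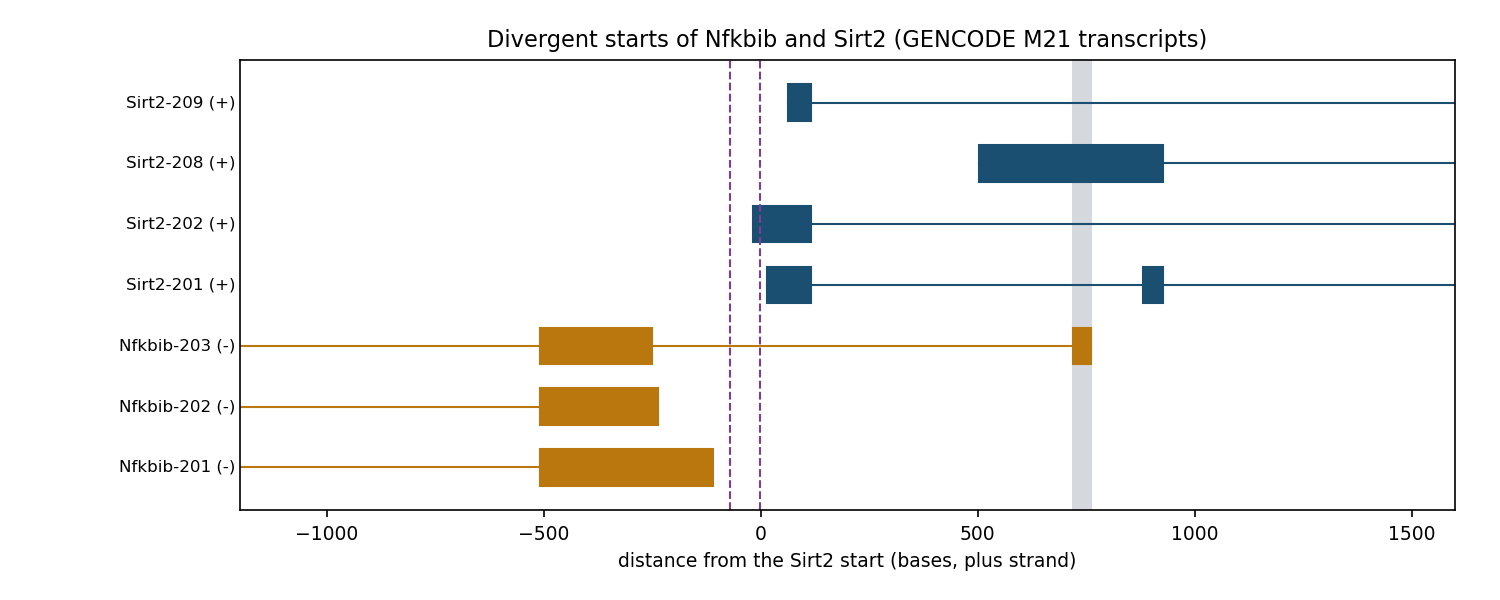
Transcripts of Nfkbib (orange, minus strand) and Sirt2 (blue, plus strand) from GENCODE M21 around the Sirt2 start, by distance in bases along the plus strand, with exons as boxes and introns as lines. Dashed lines mark the 2 matches of ACANNTCCC, and the grey band marks the 42 exon bases that the genes share, which lie in 1 transcript of each gene.

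In the exons of GENCODE M21, also on GRCm38, Sirt2 and Nfkbib share only 42 bases, from 28767471 to 28767512. These are 1.94% of the exon bases of Nfkbib and 0.834% of those of Sirt2. The first exons of the other Sirt2 and Nfkbib transcripts do not touch each other. The library kit keeps the strand of the RNA, but the sources used here do not state whether the counting used it. At its other end Nfkbib shares 314 exon bases with Ccer2, listed in the table as Gm6537, whose FPKM was 0.0773 ± 0.0554 (SD, n = 4) in control nerves. The other sirtuin genes lie apart on GRCm38. Sirt3 (ENSMUSG00000025486) is at chr7:140863670-140882309, Sirt1 (ENSMUSG00000020063) at chr10:63319005-63381704 and Sirt6 (ENSMUSG00000034748) at chr10:81621785-81627797. Sirt4 (ENSMUSG00000029524) is at chr5:115478010-115484725, Sirt5 (ENSMUSG00000054021) at chr13:43370710-43395202 and Sirt7 (ENSMUSG00000025138) at chr11:120618372-120625240, all on the minus strand but Sirt5. Sirt3 shares exon bases on the other strand with Psmd13 (342 bases) and Ric8a (418 bases, Ric8 in the table). Sirt7 shares 124 with Mafg on its own strand. These neighbours were more abundant than the sirtuins in control nerves. Psmd13 had 69.7 ± 2.17 and Ric8 34.8 ± 2.11 FPKM against 19.7 for Sirt3, and Mafg had 31.1 ± 1.86 against 21.1 for Sirt7 (SD, n = 4 each). Whether their reads entered the sirtuin values was not tested.

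Sirt2 was among the most abundant transcripts of the optic nerve. Its control mean of 2615 ± 103 FPKM (SD, n = 4) had rank 18 of 13866 tested genes. The remaining sirtuins followed at a distance. Sirt7, a nuclear sirtuin of ribosomal DNA chromatin, had 21.1 ± 2.20 FPKM and the mitochondrial deacetylase gene Sirt3 had 19.7 ± 1.43 FPKM (SD, n = 4 each). The nuclear deacetylase gene Sirt1 had 6.62 ± 0.478 FPKM, the mitochondrial Sirt4 6.54 ± 0.997 FPKM, the chromatin regulator gene Sirt6 5.14 ± 0.774 FPKM and the mitochondrial desuccinylase gene Sirt5 2.74 ± 0.393 FPKM (SD, n = 4 each). Sirt2 exceeded Sirt7 by 124 times in the control means, and it made up between 97.6% and 97.8% of the summed FPKM of the 7 sirtuins in control nerves.

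In this order of control levels, the ranges of neighbours overlapped for Sirt7 and Sirt3, for Sirt1 and Sirt4, and for Sirt4 and Sirt6. Sirt4 was nevertheless above Sirt6 within each of the 7 mice, and the mutant ranges of this pair did not overlap, whereas the order of the other pairs differed between mice. Sirt7 was above Sirt3 in 3 of 4 control mice and in 0 of 3 mutant mice. Sirt3 was above Sirt1, and Sirt6 above Sirt5, in all 7 mice with no overlap in either genotype. Sirt2 rested on 47372 to 117766 reads per sample and Sirt5 on 96 to 170, where counting alone gives an error of 10.2% at the lowest depth. In control nerves Sirt2 varied by 3.95% (SD over mean) and Nfkbib by 18.2%, both more than counting alone gives at their lowest read counts (0.459% and 4.51%).

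**Figure D2:**
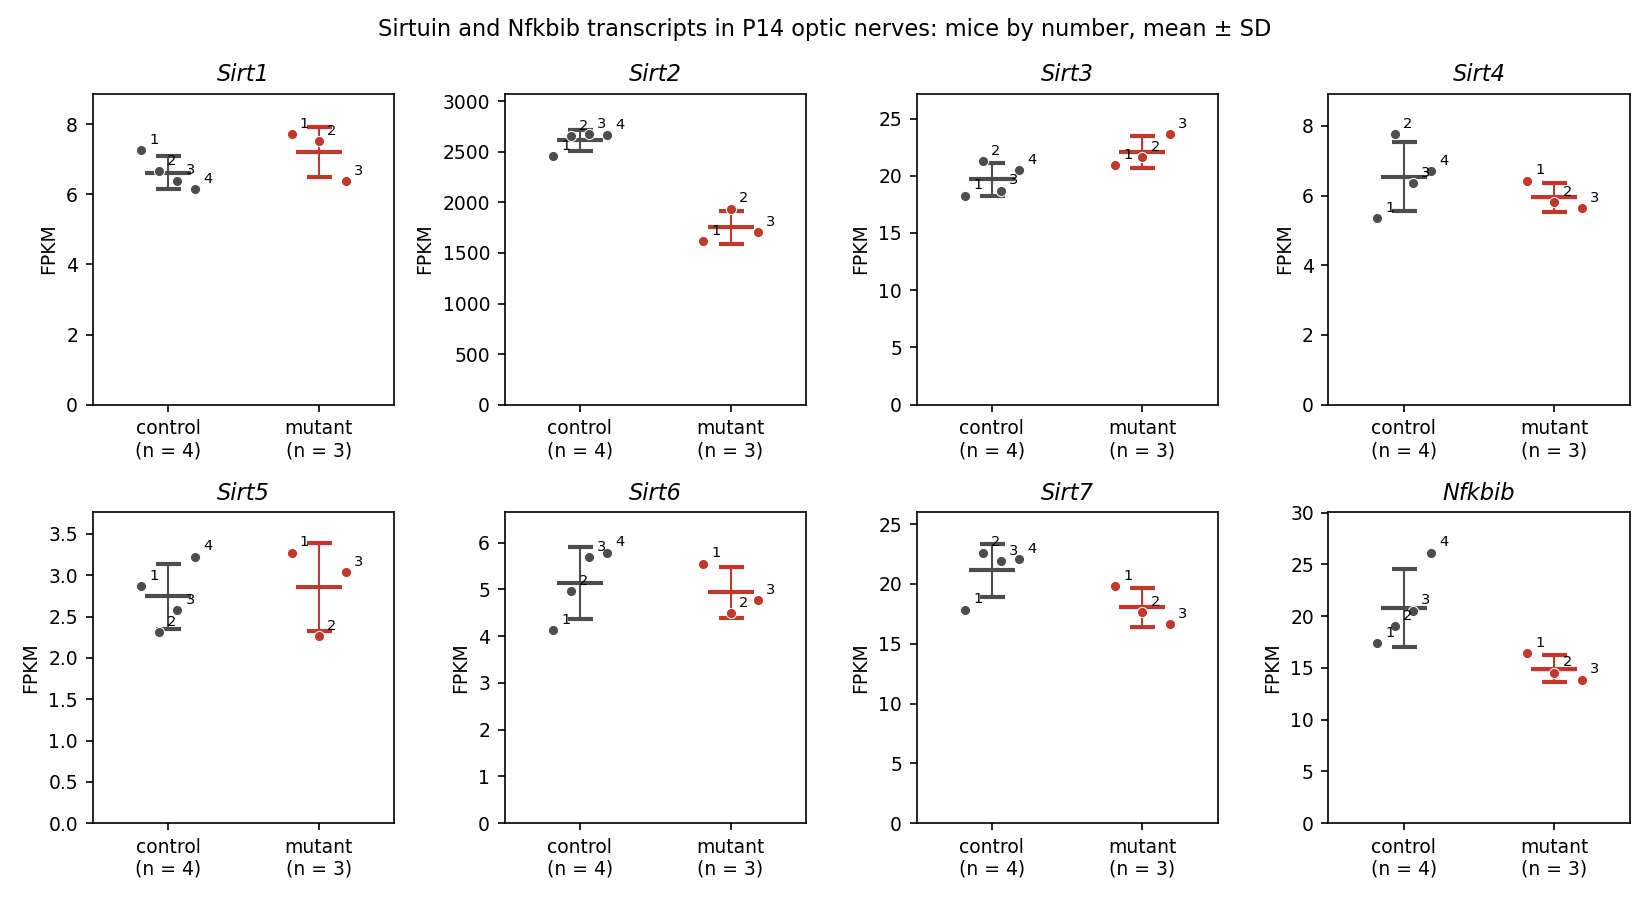
FPKM of the 7 sirtuins and Nfkbib in each mouse, with the sample number beside each point and the mean ± SD as a bar (4 control mice in grey, 3 mutant mice in red). The groups are separate in Sirt2 (2460 to 2675 against 1614 to 1938 FPKM) and Nfkbib (17.4 to 26.2 against 13.9 to 16.4 FPKM) and overlap in the other genes. Over all tested genes, 21.1% have separate groups.

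Sirt2 was lower in mutant nerves and was the sirtuin with the largest difference. It reached 2460, 2658, 2675 and 2665 FPKM in the controls (samples 1 to 4) and 1614, 1938 and 1704 FPKM in the mutants (samples 1 to 3). Every mutant mouse lay below every control mouse, control sample 1 was set below the other controls, and mutant sample 2 was the mutant nearest to them. The mutant mean was 1752 ± 167 FPKM (SD, n = 3), which is 67.0% of the control mean. The log2 fold change was -0.58 (standard error, SE, 0.0959) on log2(FPKM + 0.5) and -0.66 (SE 0.125) on the authors' normalized counts.

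Nfkbib, the divergent neighbour, was also lower in every mutant mouse. It had 17.43, 19.06, 20.55 and 26.15 FPKM in the controls (samples 1 to 4) and 16.41, 14.54 and 13.87 FPKM in the mutants (samples 1 to 3). Control sample 4 was the highest, and the gap between control sample 1 and mutant sample 1 was small. The means were 20.8 ± 3.79 (SD, n = 4) and 14.9 ± 1.32 FPKM (SD, n = 3), and the log2 fold change was -0.45 (SE 0.130). Without control sample 4 it was -0.34, the smallest difference of any fit that left out 1 sample.

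Sirt2 had 102 to 141 times the FPKM of Nfkbib in control nerves and 98.4 to 133 times in mutant nerves, so that the ratio of the pair overlapped between genotypes. The log2 ratio of Nfkbib to Sirt2 was 0.117 higher in mutant nerves, less than the pooled SD of 0.222 between mice. The sign of that small difference turned without mutant sample 1 (-0.00960), and without control sample 4 it was 0.223. Of 8 further genes within 50 kb of Sirt2 in the table, chosen by position, 7 were tested and 0 passed the adjusted threshold of limma-trend (2.62% over all tested genes). Among them, Hnrnpl, which encodes a splicing regulator, had 121 ± 6.65 FPKM in control (SD, n = 4) and 119 ± 5.54 FPKM in mutant nerves (SD, n = 3). Mrps12, a mitochondrial ribosomal protein gene, had 21.7 ± 3.46 and 17.6 ± 2.30 FPKM (SD, n = 4 and 3). All 7 flanking genes had overlapping groups, whereas 21.1% of all tested genes had separate groups, and nothing is read from so few genes.

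None of the other 6 sirtuins was separated by genotype, against 21.1% of all tested genes, and nothing is read from so small a count. Sirt7 had 17.86, 22.62, 21.92 and 22.10 FPKM in the controls (samples 1 to 4) and 19.80, 17.65 and 16.65 FPKM in the mutants (samples 1 to 3). Control sample 1 was set apart below the other controls and inside the mutant range, and the log2 fold change was -0.22 (SE 0.0986). Sirt3 had 18.27, 21.27, 18.69 and 20.49 FPKM in the controls (samples 1 to 4) and 20.95, 21.62 and 23.64 FPKM in the mutants (samples 1 to 3). Only control sample 2 reached the mutant range, and the log2 fold change was 0.16 (SE 0.0778).

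Sirt1 had 6.16 to 7.26 FPKM in control and 6.38 to 7.72 FPKM in mutant nerves (a log2 fold change of 0.11, SE 0.0965). Sirt4 had 5.34 to 7.76 and 5.63 to 6.43 FPKM (log2 fold change -0.12, SE 0.121). In Sirt1 mutant samples 1 and 2 were above all controls and mutant sample 3 was among them, and in Sirt4 all 3 mutants lay within the control range. Sirt5 had 2.31 to 3.22 and 2.26 to 3.27 FPKM (log2 fold change 0.04, SE 0.146), and Sirt6 had 4.12 to 5.79 and 4.49 to 5.55 FPKM (log2 fold change -0.05, SE 0.130). Neither gene had a stable direction. The sign of Sirt5 turned on the normalized counts, after upper-quartile scaling and after quantile normalization, and that of Sirt6 turned in the fit that blocked on the sample number. Summed over these 6 genes, control nerves had 61.8 ± 4.41 FPKM (SD, n = 4) and mutant nerves 61.1 ± 2.33 FPKM (SD, n = 3).

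**Figure D3:**
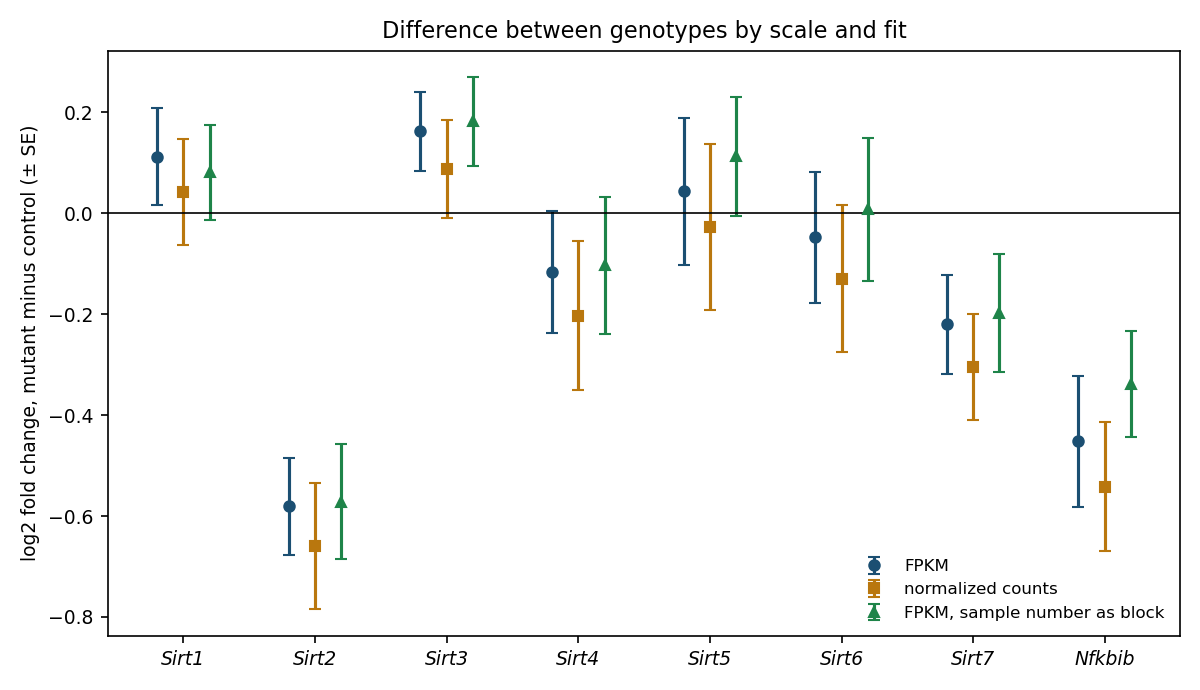
Log2 fold change (mutant minus control) with its standard error for each gene from limma-trend on log2(FPKM + 0.5), on log2(normalized count + 1), and on log2(FPKM + 0.5) with the sample number as a block. Sirt2 sits between -0.66 and -0.57 and Nfkbib between -0.54 and -0.34, whereas Sirt5 and Sirt6 lie on both sides of 0.

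Across the 13866 tested genes, 363 passed an adjusted p of 0.05 in limma-trend (2.62%), with 175 higher (1.26%) and 188 lower (1.36%) in mutant nerves. On the normalized counts the split was 103 higher and 267 lower. Of the 8 genes described here, 1 was among them, Sirt2, which was also called with the replicate block (8.36% of all tested genes), and 2 passed at an unadjusted p under 0.05, Sirt2 and Nfkbib, against 24.4% of all tested genes (3387 of 13866). The call of Sirt2 was kept without mutant sample 2. It was lost when any control sample, mutant sample 1 or mutant sample 3 was left out, and without the filter on low values, while the log2 fold change stayed between -0.66 and -0.52. Of the other 6 sirtuins, 0 passed unadjusted. The groups did not overlap in 2 of the 8 genes, both lower in mutant nerves, against 21.1% of all tested genes in either direction, 8.26% lower and 12.9% higher. Since Sirt2 had been selected on this comparison, nothing is read from these counts. The median log2 fold change was -0.00169 over the 6 other sirtuins and 0.05 over all tested genes.

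Sirt2 was also compared with genes of the cells that express it. The 9 markers of myelinating OLs used here, among them Mbp, Mag and Cnp, summed to 35669 to 42750 FPKM in control and 26449 to 32953 FPKM in mutant nerves. All 9 had a lower mutant mean, and the groups did not overlap in 4 of them (21.1% over all tested genes). Opalin hardly differed, with 146 ± 3.42 and 143 ± 34.4 FPKM (SD, n = 4 and 3). Of the 9, 2 passed the adjusted threshold, Mag and Cnp (2.62% over all tested genes). With the block 0 passed (8.36% over all tested genes). Sirt2 was 6.90%, 6.22%, 6.59% and 6.72% of this sum in the controls (samples 1 to 4) and 6.10%, 5.88% and 6.10% in the mutants (samples 1 to 3). Relative to the summed myelin genes, Sirt2 was thus lower in every mutant mouse than in any control mouse, with a narrow gap to control sample 2. Mbp alone had 26382.5 ± 2482 FPKM in control nerves (SD, n = 4), most of this sum, so the share largely reflects Mbp. Ratios of Sirt2 to single markers other than Cnp and Mag were not taken. Relative to Cnp, a myelin protein gene of similar abundance, Sirt2 was 0.953 to 0.972 in control and 0.868 to 0.901 in mutant nerves. Its ratio to Mag overlapped, with 0.984 to 1.12 in control and 0.854 to 0.998 in mutant nerves. Sirt2 was selected on its lower FPKM in these mutants, which by itself favours a lower ratio to other genes. How often other genes would separate in such ratios was not counted, and nothing is read from them. The newly formed OL markers summed to 892 to 971 FPKM in control and 650 to 736 FPKM in mutant nerves (5 of 6 lower, 2 past the threshold and 4 with the block), and the part of either list in the Sirt2 difference was not tested.

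**Figure D4:**
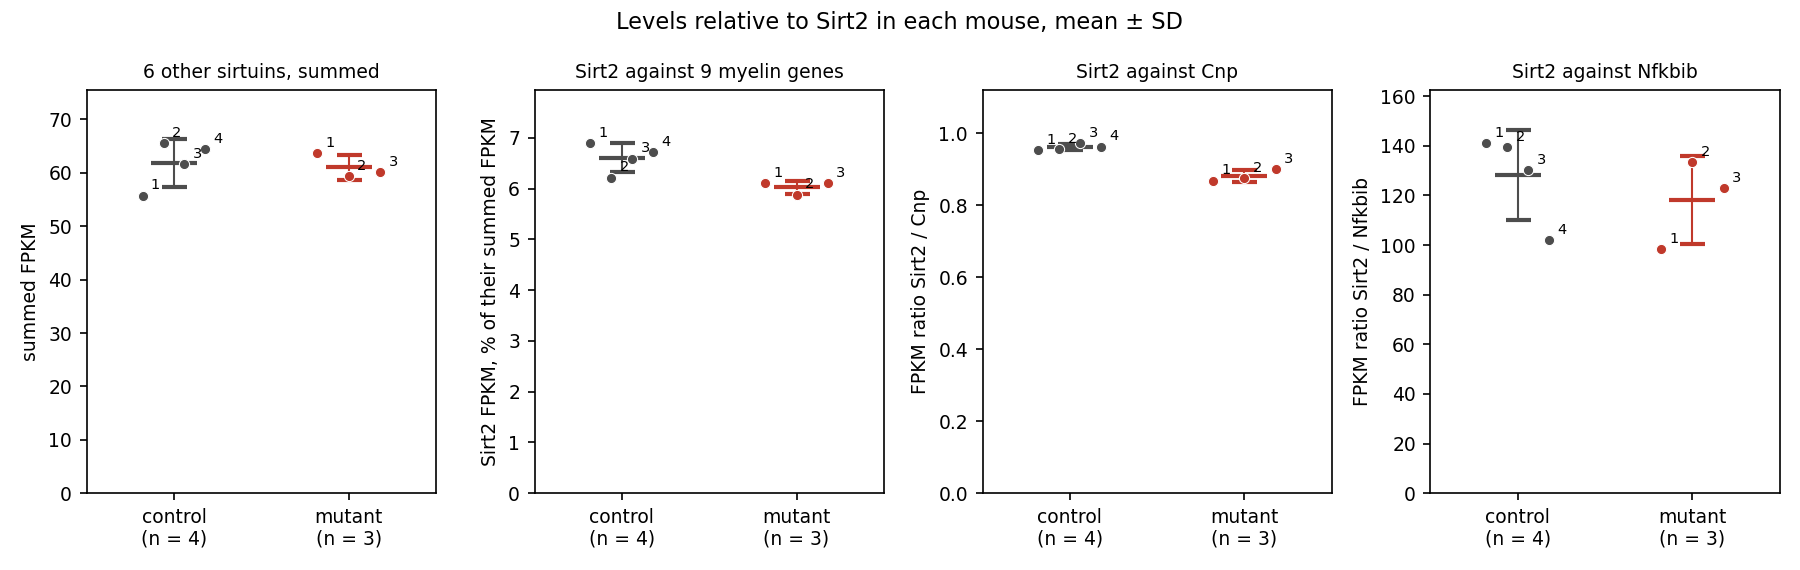
From left to right, the summed FPKM of the 6 other sirtuins, Sirt2 as a percentage of the summed FPKM of 9 myelinating OL markers, the ratio of Sirt2 to Cnp and the ratio of Sirt2 to Nfkbib, for each mouse with the mean ± SD. Genotypes are separate for Sirt2 against the sum of the myelin genes, most of it Mbp (6.22% to 6.90% against 5.88% to 6.10%), and against Cnp, and overlap in the outer panels. Sirt2 was selected on its lower mutant FPKM, which by itself favours lower ratios in the mutants.

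The tested genes with the pattern most like that of Sirt2 over the 7 mice, by Pearson's r of log2(FPKM + 0.5), were Cnp (r = 0.996), Snx22 (0.993), Coro2b (0.992), E2f3 (0.989) and Zdhhc14 (0.988). All of them were less abundant in mutant nerves, and the difference between genotypes is part of this likeness. Snx22, a sorting nexin gene, had 18.8 FPKM in control and 11.7 FPKM in mutant nerves on average, and Coro2b, which encodes an actin-binding coronin, had 171 and 128 FPKM. Nfkbib had r = 0.777 (rank 1053) and Sirt7 r = 0.676 (rank 1616). Once the mean of each genotype was subtracted, the most alike were Abhd4 (r = 0.981), Slc48a1 (0.980), Pigq (0.979), Mvd (0.979) and Nmral1 (0.979), and Nfkbib had r = 0.104. These values are descriptions over points that share a library and its depth.

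Genes that supply or use NAD were taken as a list. The NAD synthesis list, which also holds the NAD kinase genes, had 13 tested genes of 18. Of these, 1 was higher past the adjusted threshold and 0 lower (2.62% over all tested genes). The median log2 fold change was 0.128 (0.05 over all tested genes). The gene past the threshold was Nadk2, the mitochondrial NAD kinase, which uses NAD to make NADP and does not itself make NAD. No other gene of the list passed. Nadk2 rose by 0.37 in log2 units (SE 0.0798, limma-trend adjusted p = 0.0480), with 20.40 to 23.15 FPKM in the controls and 27.05 to 31.99 FPKM in the mutants. It did not pass with the sample number as a block (limma-trend adjusted p = 0.0656, against 0.0423 to 0.145 over its alternatives). Nampt, which encodes the rate-limiting enzyme of NAD salvage, had 32.3 ± 1.19 and 37.4 ± 0.894 FPKM (SD, n = 4 and 3) without passing (limma-trend adjusted p = 0.0792), and the cytosolic kinase gene Nadk had 62.4 ± 1.22 and 66.2 ± 2.27 FPKM.

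Among 9 tested genes that consume NAD or remove nicotinamide, 1 was higher and 1 lower past the threshold (2.62% over all tested genes). Cd38, which encodes a membrane NAD hydrolase, had 26.06, 26.33, 21.13 and 25.62 FPKM in the controls (samples 1 to 4) and 32.22, 40.68 and 34.24 FPKM in the mutants (samples 1 to 3). All mutant values were above all control values (log2 fold change 0.52, SE 0.104, limma-trend adjusted p = 0.0435). Parp1, the poly(ADP-ribose) polymerase of DNA repair, fell by 0.39 in log2 units (SE 0.0585, limma-trend adjusted p = 0.0214). It had 114.2, 110.3, 112.3 and 103.3 FPKM in the controls (samples 1 to 4) and 85.52, 80.50 and 85.66 FPKM in the mutants (samples 1 to 3). The median of the list was 0.09, and Tnks2, its most abundant gene, had 141 ± 7.93 FPKM in control and 142 ± 2.86 FPKM in mutant nerves (SD, n = 4 and 3).

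The list of SIRT2 substrates and tubulin acetylation partners had 17 tested genes, with a median of 0.03. Past the threshold, 1 was higher and 2 were lower (2.62% over all tested genes). The groups did not overlap in 6 of the 17 (21.1% over all tested genes). Atat1, the alpha-tubulin acetyltransferase that places the mark SIRT2 removes, had 116.0, 125.0, 119.1 and 114.3 FPKM in the controls (samples 1 to 4) and 82.17, 94.96 and 88.03 FPKM in the mutants (samples 1 to 3). The groups were separate by a wide gap, and Atat1 fell by 0.42 (SE 0.0660, limma-trend adjusted p = 0.0234). Hdac6, the other cytoplasmic tubulin deacetylase, had 8.89 ± 0.607 FPKM in control and 9.08 ± 0.819 FPKM in mutant nerves (SD, n = 4 and 3). The most abundant substrate gene was the alpha-tubulin Tuba1a, at 1824 ± 55.9 and 1494 ± 110 FPKM (SD, n = 4 and 3), which did not pass (limma-trend adjusted p = 0.0958), followed by Tuba1b at 259 ± 16.1 and 267 ± 38.4 FPKM.

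Setd8, which encodes a histone H4 methyltransferase, fell by 0.40 (SE 0.0724, limma-trend adjusted p = 0.0336). The controls had 103 ± 7.64 FPKM and the mutants 78.2 ± 4.11 FPKM (SD, n = 4 and 3). Aldh1a1, a retinaldehyde dehydrogenase gene, rose by 0.51, with 73.4 ± 8.79 FPKM in the controls and 105 ± 9.84 FPKM in the mutants (SD, n = 4 and 3, SE 0.0994, limma-trend adjusted p = 0.0399).

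Of 17 tested substrates and regulators of the nuclear sirtuins, 1 passed (2.62% over all tested genes), Ppargc1a, which encodes the coactivator PGC-1alpha deacetylated by SIRT1. It rose by 0.54 in log2 units, with 4.20 ± 0.356 FPKM in the controls and 6.33 ± 0.779 FPKM in the mutants (SD, n = 4 and 3, SE 0.108, limma-trend adjusted p = 0.0437), and the median of the list was 0.09. The most abundant genes of the list were Hif1a, encoding the hypoxia factor, with 42.5 ± 3.55 and 42.5 ± 1.89 FPKM, and Nr1h2, encoding LXR-beta, with 32.7 ± 4.04 and 31.3 ± 5.74 FPKM (SD, n = 4 and 3). Of 16 tested mitochondrial substrates, 0 passed in limma-trend (2.62% over all tested genes) and 4 had an unadjusted p under 0.05 (24.4% over all tested genes), with a median of 0.08. Sdha, the complex II flavoprotein gene, led in abundance with 217 ± 12.2 and 244 ± 18.7 FPKM, followed by the nucleotide carrier gene Slc25a5 with 189 ± 6.17 and 196 ± 13.4 FPKM (SD, n = 4 and 3). With the block, Srebf1 joined the nuclear list (2 genes), Idh2 the mitochondrial list (1 gene) and the alpha-tubulin gene Tuba4a the SIRT2 substrate list (4 genes), all higher in mutant nerves. Tuba4a had 10.09 to 12.42 FPKM in the controls and 15.02, 12.34 and 27.49 FPKM in the mutants (samples 1 to 3), so that the groups overlapped. These 3 were named after their values had been seen.

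NF-kB subunits, IkB proteins, their kinases and IkB-binding Ras-like proteins, without Nfkbib, made 15 tested genes with a median of 0.10. Of these, 9 had higher and 6 had lower mutant values. Past the threshold (2.62% over all tested genes), 0 were higher and 1 was lower. This was Nkiras2, which encodes a Ras-like protein that binds IkB-beta and which overlaps Dnajc7 and Zfp385c on the opposite strand. It fell by 0.36 (SE 0.0731, limma-trend adjusted p = 0.0445), with 32.4 ± 1.45 FPKM in the controls and 25.3 ± 2.16 FPKM in the mutants (SD, n = 4 and 3), and did not pass with the block (limma-trend adjusted p = 0.0641, against 0.0242 to 0.141 over its alternatives). Chuk, the IKK-alpha gene, had 30.2 ± 0.837 and 27.1 ± 2.56 FPKM (SD, n = 4 and 3). Nfkbia, which encodes IkB-alpha, was higher in mutant nerves, with 21.9 ± 3.37 and 30.3 ± 4.02 FPKM (SD, n = 4 and 3). It did not pass (limma-trend adjusted p = 0.0815).

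**Figure D5:**
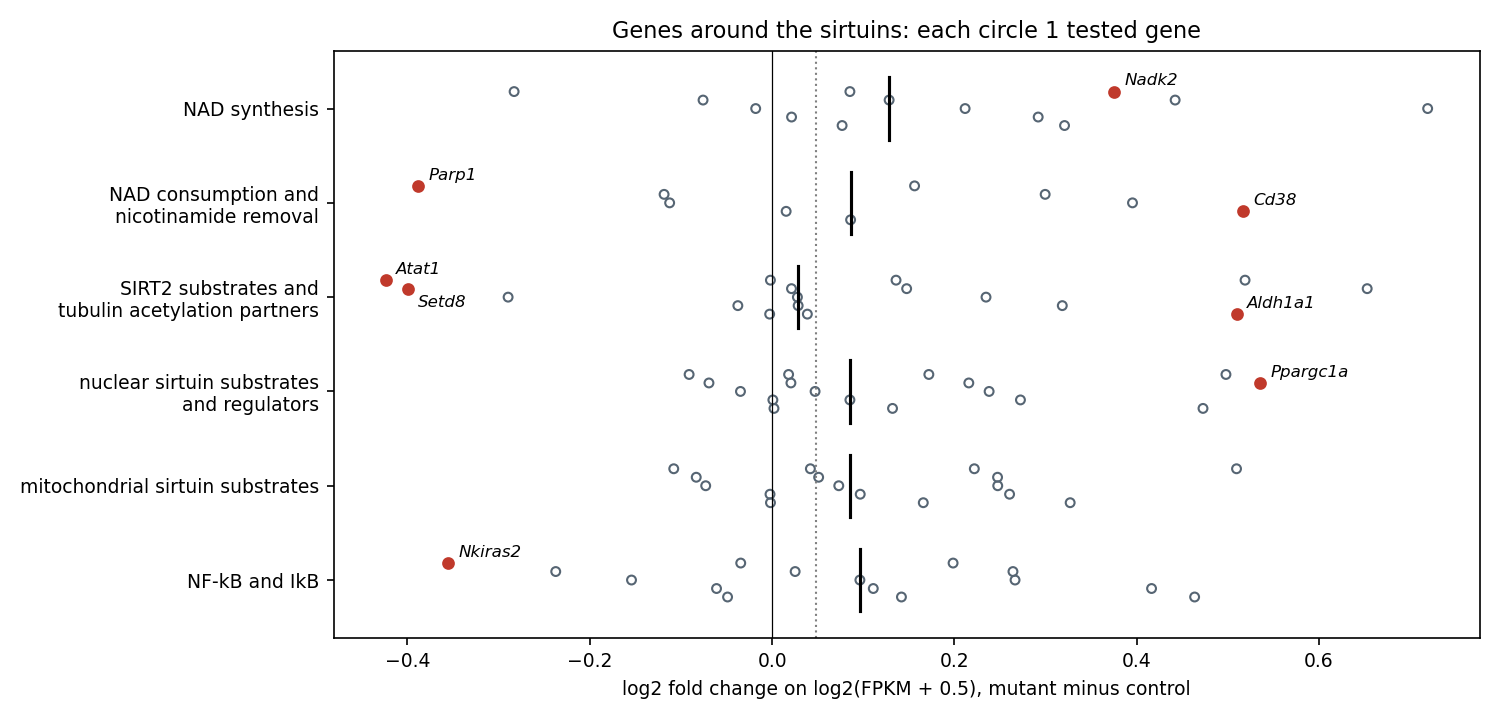
Log2 fold change on log2(FPKM + 0.5), mutant minus control, of each tested gene in 6 lists, with genes past the adjusted limma-trend threshold filled and named, the median of each list as a vertical bar and the median of all tested genes (0.05) as a dotted line. The list medians lie between 0.03 and 0.128, and 8 genes are filled, 4 on each side of 0.

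The 8 list genes past the threshold depended on single mice. Parp1 and Atat1 were no longer called without control sample 1, 2 or 3 or mutant sample 3 (adjusted p up to 0.0962 and 0.0981, limma-trend). Cd38 was lost without any control sample or mutant sample 3 (up to 0.115), and Aldh1a1 was kept only without control sample 1 or mutant sample 2 (otherwise up to 0.124). Setd8, Ppargc1a and Nadk2 were kept only without mutant sample 2 (otherwise up to 0.117, 0.127 and 0.145) and Nkiras2 only without mutant sample 1 (otherwise up to 0.141). Astrocyte markers were higher in mutant nerves in 7 of 7 genes, 3 past the threshold (2.62% over all tested genes) and 5 with the block (8.36%). Their sums were 2566 to 3012 FPKM in control and 3308 to 4085 FPKM in mutant nerves. Meningeal fibroblast markers were higher in 6 of 6 genes, 0 past the limma-trend threshold (5 with the block) and 4 at an unadjusted p under 0.05, with sums of 525 to 913 and 843 to 1634 FPKM. Microglia (7 of 7 genes, 233 to 278 against 264 to 306 FPKM) and endothelial markers (6 of 6 genes, 98.6 to 119 against 130 to 137 FPKM) also had higher values, with 0 genes past the limma-trend threshold, 3 each at an unadjusted p under 0.05 (24.4% over all tested genes), and 1 and 2 with the block. The OL progenitor markers had 4 of 6 genes lower, 2 past the threshold, and sums of 224 to 260 and 189 to 234 FPKM. The part of these cell types in the differences of the sirtuin-related genes was not tested.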

How the data were processed

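RNA of P14 optic nerves from 4 control and 3 mutant mice was sequenced from poly-A libraries. The authors cleaned the reads, aligned them with STAR 2.5.1b to GRCm38 and estimated gene levels with RSEM 1.2.22. The deposited table holds FPKM for each sample and a normalized count, a signal made by the authors by scaling estimated counts with a factor for each sample. Gene length was deposited in bases. All 14 columns of single samples were used; the authors' fold changes, p-values and FDR were not.

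Groups and sample numbers came from the labels. limma 3.58.1 (limma-trend, R 4.3.3) was run on log2(FPKM + 0.5) for 13866 genes with at least 0.5 FPKM in at least 3 samples, genotype as the only term, with two-sided p-values and Benjamini-Hochberg adjustment at 0.05. The fit was tested on simulated data. The scale understates changes of low genes. Reads were estimated by dividing normalized counts by the most frequent low value. Since 75.8% to 80.7% of low values were whole within 0.05 reads, no count test was run.

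Samples of the same number deviated together, with r = 0.168 to 0.409 across genes in 3 pairs. Pairs of different numbers had -0.353 to 0.205, of which control 4 with mutant 1 was above control 1 with mutant 1. The labels do not say what a number stands for. Pairing by number was therefore an alternative, and the main fit did not use it. The members and lists were chosen with earlier results of these data known. Genes named are the members, Fasn, genes overlapping or flanking them, list genes past the threshold and the 2 most abundant of each list, and the 5 most like Sirt2; other list genes named were picked for their role. Alternatives were other pseudocounts, filters, scalings, the block, and leaving out each sample. Control sample 4 had no mutant of its number, so the block fit rested on 3 pairs. The log2 fold changes of the block fit therefore equal those without control sample 4. A gene of the planned myelinating OL markers is not reported here and was left out of that list.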

Additional observations from a re-analysis of the deposited data

Results flagged for a closer look

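Among 35 measures checked in the 4 control mice, 5 had a sample set apart from the rest by Dixon's criterion, which chance gives in about 1 of 20 groups. Control sample 1 was set apart below the other controls in Sirt2 (2460 FPKM) and in Sirt7 (17.9 FPKM), and above them in Tnks2 (153 FPKM). Control sample 3 was low in Cd38 (21.1 FPKM) and control sample 2 in Sdha (199 FPKM). Without control sample 1 the log2 fold change was -0.61 for Sirt2 and -0.30 for Sirt7.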

How the results depend on the processing

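Over 15 alternatives each, the log2 fold changes of the 8 genes moved by less than the SD between mice in all 120 values. Sirt1, Sirt2, Sirt3, Sirt4, Sirt7 and Nfkbib kept their sign in all, Sirt5 turned in 6 and Sirt6 in 4. The block and the fit without control sample 4 gave the same log2 fold changes, so they are not separate checks. For Sirt2 the range was -0.66 to -0.50. Nothing is read from its call, since Sirt2 was selected on this comparison. The call was lost without a filter on low values and with any 1 sample but mutant sample 2 left out. The share of Sirt2 in the summed sirtuins differed by -1.08 percentage points, by -1.48 on normalized counts and by -1.29 to -0.880 with 1 sample left out. The log2 ratio of Nfkbib to Sirt2 differed by -0.00960 to 0.223 with 1 sample left out. Sirt5 rested on as few as 96 reads, which limits its precision.

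The number of genes past the threshold was 363. It was 95 without a filter, over 19291 genes, and 1159 with the replicate block (890 higher, 269 lower), which pairs the samples by number and leaves control sample 4 without a partner. With 1 sample left out it was 6 to 907: 60, 15, 6 and 117 without control sample 1, 2, 3 and 4, and 186, 907 and 6 without mutant sample 1, 2 and 3. Of the genes called, 48.2% were higher in mutant nerves, against 32.0% after upper-quartile scaling, 33.4% after quantile normalization and 27.8% on normalized counts. The median log2 fold change over all genes was between -0.03 and 0.05 in these fits.

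Without a filter on low values, 0 genes passed in NAD synthesis, in the nuclear list and in the NF-kB list, and 1 each in NAD consumption and among the SIRT2 substrates. With upper-quartile scaling, quantile normalization or normalized counts, 0 passed in NAD synthesis and 1 in NAD consumption, and with quantile normalization 0 in the nuclear list. With the replicate block, 0 passed in NAD synthesis and in the NF-kB list, 2 in the nuclear list and 1 in the mitochondrial list. Of the genes named with values, it ended the calls of Nadk2, Nkiras2, Mag and Cnp, added Srebf1, Idh2 and Tuba4a, and changed no other call. With 1 sample left out, the counts were 0 to 2 in NAD synthesis and NAD consumption, 0 to 4 among SIRT2 substrates, and 0 to 1 in the nuclear, mitochondrial and NF-kB lists. The causes were not tested.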
